A study of Mus musculus with 3 samples.

Results

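The muscle atrophy programme was followed in the calf (gastrocnemius with plantaris) of male mice through 10 genes: the ubiquitin ligase genes Trim63, Fbxo32, Fbxo30, Fbxo40 and Mul1, the transcription factor genes Foxo1 and Foxo3, the stress and glucocorticoid-responsive genes Klf15 and Ddit4, and the ligand gene Mstn. They were picked by symbol for what they are known to do, with earlier results of these data known. They are 10 of the 42258 genes listed for each library. All 10 were among the 12966 genes compared, which are those with a mean of at least 1 CPM (read counts scaled to a common library total) over the 3 libraries.

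Gene expression was measured by RNA sequencing of total RNA that had been pooled within each group, so each group is 1 library. The aged EPA library came from 6 mice of strain C57BL/6J, 87 weeks old, fed for 12 weeks from the age of 75 weeks a diet with 1 wt% eicosapentaenoic acid (EPA), a fatty acid of the omega-3 family. The aged control library came from 6 mice of the same strain and age that were fed a diet without EPA over the same 12 weeks. The young library came from 3 mice, 24 weeks old, whose strain is written C57BL/7J in the labels and whose diet is not stated. Age cannot be told apart from these differences, nor from library preparation. With 1 pooled library a group there is no replicate, no spread between mice and no test, so every difference below is between 3 libraries.

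Muscle loses protein when the ubiquitin-proteasome system tags contractile and other proteins faster than they are replaced. In the textbook scheme, insulin-like growth factor signalling through Akt keeps FoxO transcription factors out of the nucleus. When that signal weakens, FoxO factors switch on ubiquitin ligase genes, while glucocorticoids and myostatin push in the same direction and REDD1, the product of Ddit4, restrains the growth kinase mTORC1. FoxO activity is set mostly by phosphorylation of the protein, so transcript levels of Foxo1 and Foxo3 do not report it.

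The libraries held 55969822 (aged EPA), 57622886 (aged control) and 57386394 (young) counts, as recovered from the CPM. Skeletal muscle fibre markers were present throughout. The summed CPM of 12 of them, among them Acta1 (actin) and Myh4 (fast myosin), was 153949 in aged EPA, 152450.3 in aged control and 135404 in young. All 12 lay within 1.5-fold in each comparison. The slow fibre genes Myh7 and Tnni1, given below, were not among these 12. Summed red blood cell markers (6 genes) stood at 566, 561 and 1509 CPM, and summed endothelial markers (9 genes) at 366, 376 and 474 CPM in aged EPA, aged control and young. Adipocyte markers (8 genes) summed to 326, 287 and 434 CPM and B and plasma cell markers (7 genes) to 233, 221 and 150.0 CPM in the same libraries. Of the B and plasma cell markers, 3 were among the genes compared. Markers of the other 5 cell types listed had median log2 changes between -0.19 and 0.17 in aged EPA against aged control. In aged control against young these medians lay between -0.11 and 0.07. Single markers moved farther, up to 1.18 (fibro-adipogenic progenitor) in aged EPA against aged control. In aged control against young they reached -1.47 (fibro-adipogenic progenitor), -0.99 (satellite cell) and 0.60 (Schwann cell). Adipocyte markers ran from -0.88 to 0.88 in aged control against young. Endothelial markers had a median of -0.35 in that comparison, with 2 of 9 past 1.5-fold, both lower, and the lowest at -1.29. The part of these shifts in the results below was not tested, and in bulk tissue fewer cells of a type and less RNA per cell cannot be told apart.

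Scaled by exon length (the union of annotated exons), the muscle ligase genes led the 10 genes in every library. Trim63 stood at 122, 113 and 162 CPM per kb in aged EPA, aged control and young, Fbxo40 at 78.2, 82.9 and 85.5, and Fbxo32 at 39.9, 33.0 and 41.1. Mstn followed with 27.5, 29.99 and 26.2 CPM per kb. Klf15 (21.6, 20.8 and 20.1) and Ddit4 (18.0, 29.3 and 21.7) came next and changed places: Klf15 was above Ddit4 in aged EPA, and Ddit4 was above Klf15 in aged control and young. Mul1, Foxo1 and Foxo3 lay between 4.85 and 9.69 CPM per kb, and Fbxo30 was lowest in each library, at 2.48, 3.04 and 2.97. Without replicates, the order of close neighbours such as Mstn and Ddit4 in aged control has no error between mice.

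**Figure D1:**
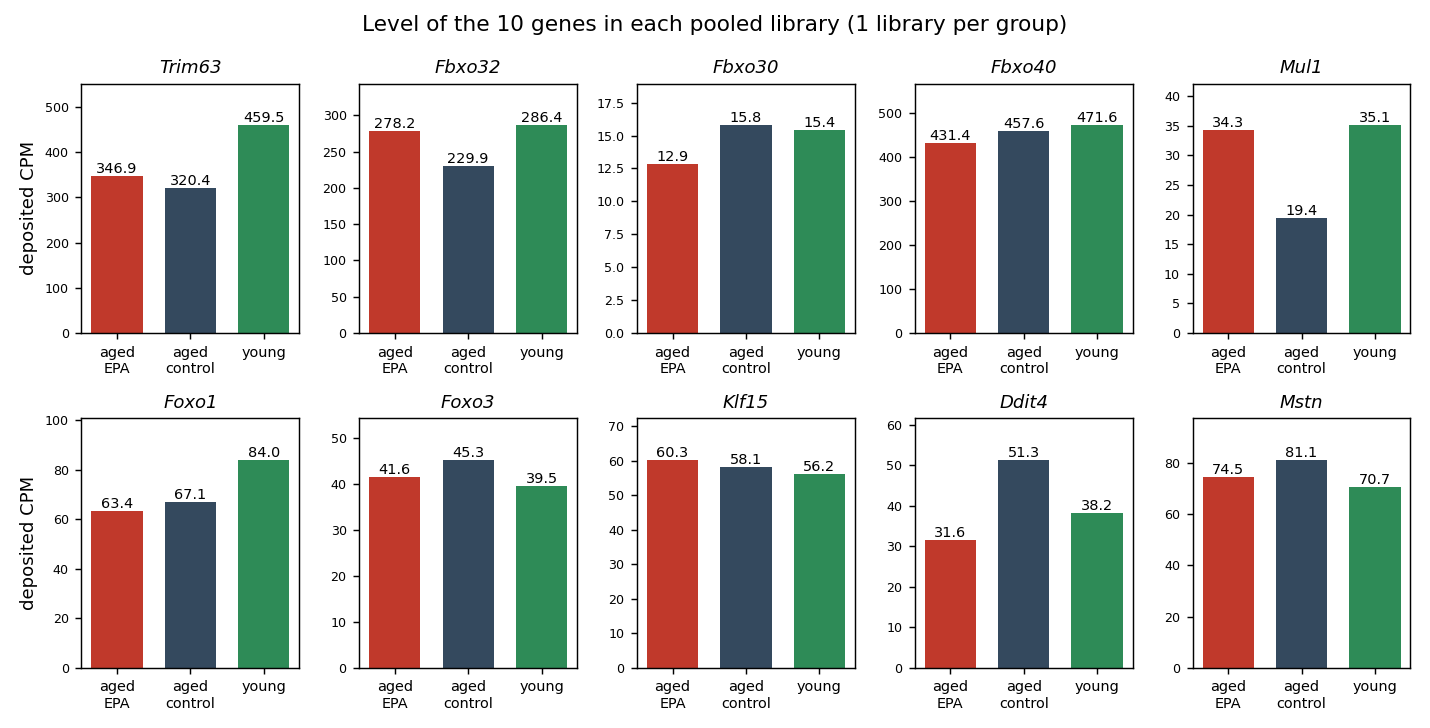
Deposited CPM (y axis, from 0, own scale in each panel) of the 10 genes in the aged EPA, aged control and young libraries, 1 bar per pooled library with no error bar because there is no replicate. Mul1 is lowest in aged control (19.4 CPM) and Ddit4 highest there (51.3 CPM), Trim63 and Foxo1 are highest in young, and Fbxo40 and Klf15 are nearly level.

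Trim63 encodes MuRF1, a RING-finger ubiquitin ligase of the sarcomere that is a standard marker of atrophy. Its promoter is shown because it carries the letters of both arms of the programme side by side. In the 250 bases before its annotated start (RefSeq, GRCm38.p6, plus strand, chr4:134314870-134315119) the capitals mark, in order, a glucocorticoid receptor palindrome, the FoxO letters read on the opposite strand, and a TATA box. The same stretch of Mstn (plus strand, chr1:53061390-53061639), the other gene with a TATA box among the 9 whose promoters could be searched, is set below it, with that box in capitals.
Trim63: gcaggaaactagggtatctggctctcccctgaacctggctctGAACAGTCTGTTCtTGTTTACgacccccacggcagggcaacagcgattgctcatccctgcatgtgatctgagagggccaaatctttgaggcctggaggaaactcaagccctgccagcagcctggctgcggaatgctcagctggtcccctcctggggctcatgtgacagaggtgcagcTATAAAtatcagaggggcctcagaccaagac
Mstn: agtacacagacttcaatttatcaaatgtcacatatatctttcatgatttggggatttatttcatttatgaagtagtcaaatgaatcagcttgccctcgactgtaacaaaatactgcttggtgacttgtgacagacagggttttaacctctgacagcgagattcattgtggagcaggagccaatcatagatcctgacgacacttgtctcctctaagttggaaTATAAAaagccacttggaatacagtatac

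The motifs searched, on both strands, were GTAAACA for FoxO, GNACANNNTGTNC for the glucocorticoid receptor and TATAAA for the TATA box. RefSeq promoters (250 bases before to 50 after the start) were matched for 9 of the 10 genes, with a second start for Fbxo40, and Fbxo32 was not matched. In Trim63 the palindrome spans positions -208 to -196 from the start, the FoxO letters -194 to -188, and the TATA box -31 to -26. In Mstn the TATA box spans -29 to -24. No other promoter of the 9 genes held any of the 3 motifs. Among all 32851 promoters, 3.65% held the FoxO letters, 0.475% the palindrome and 13.6% the TATA letters, anywhere and on either strand. The TATA letters on the gene's strand, starting 40 to 20 bases before the start as in Trim63 and Mstn, were in 1.99%. Of all 32851, 1 promoter, that of Trim63, held the FoxO letters and the palindrome at most 10 bases apart before the start, a distance chosen after the Trim63 sequence had been seen. These are matches of letters, with no measurement of binding.

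**Figure D2:**
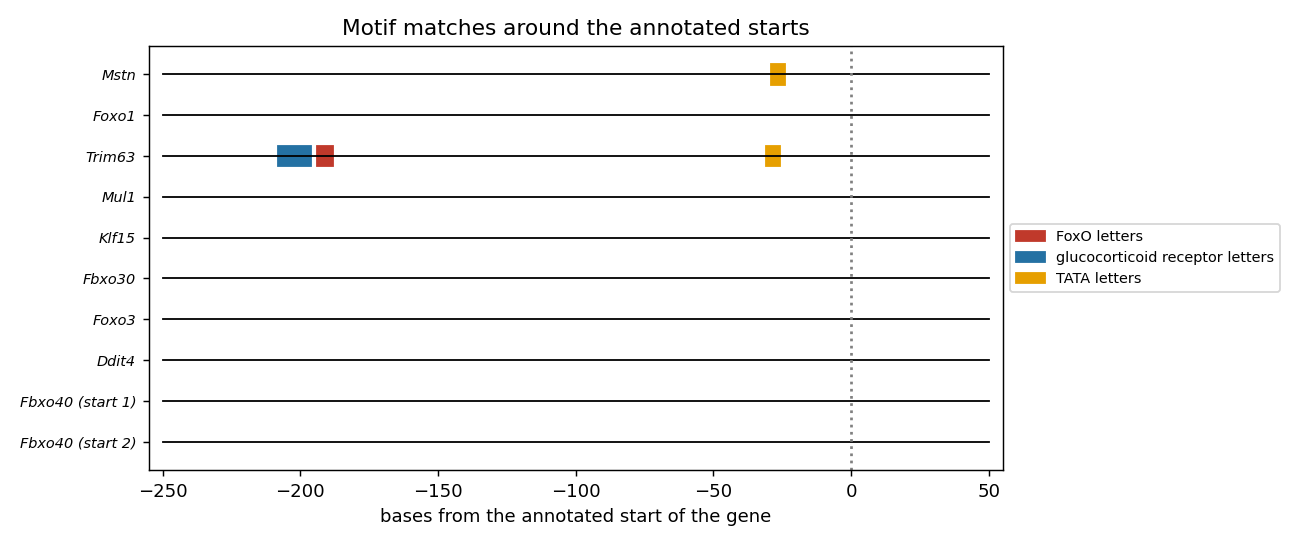
Matches of the FoxO, glucocorticoid receptor and TATA letters (coloured boxes) along the annotated promoters of 9 of the 10 genes; the x axis gives bases from the start of the gene, from 250 before to 50 after. The 3 kinds of match occur together in Trim63, and Mstn holds a TATA match alone.

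Trim63 (ENSMUSG00000028834, chromosome 4, 134315120 to 134329629 on GRCm38) stood at 347 CPM in aged EPA, 320.4 CPM in aged control and 459.5 CPM in young. Both aged libraries were thus lower than the young library, and the aged EPA library lay slightly above the aged control. The measure used throughout for changes is the log2 change of CPM + 1. For Trim63 it was 0.11 in aged EPA against aged control, -0.52 for aged control against young and -0.40 for aged EPA against young. The counts were 19436, 18406 and 25939. From these, the log2 ratio over each library's own total was -0.50 for aged control against young (95% exact counting interval -0.53 to -0.47). Such intervals cover counting error only.

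Fbxo32 encodes atrogin-1 (MAFbx), the F-box subunit of an SCF ubiquitin ligase and the second standard marker of atrophy. It had 278 CPM in aged EPA, 229.9 CPM in aged control and 286 CPM in young. The aged control library was the low value, and aged EPA and young were close to each other. The log2 change was 0.27 in aged EPA against aged control and -0.32 in aged control against young. In aged EPA against young it was -0.04, and the counting interval of the ratio (-0.05 to 0.02) spanned 0. The antisense gene Gm15943, which overlaps Fbxo32, was listed at 0 in all 3 libraries.

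Mul1, a ligase of the outer mitochondrial membrane that targets mitofusin 2, had the largest differences of the 10 genes in aged EPA against aged control and in aged control set against young. It stood at 34.3 CPM in aged EPA, 19.4 CPM in aged control and 35.1 CPM in young, with 1976, 1097 and 1967 counts. Aged control was low, and aged EPA and young lay at nearly the same level. Mul1 was 1.73-fold higher in aged EPA relative to aged control (log2 change 0.79, log2 count ratio 0.89, counting interval 0.78 to 1.00) and 1.77-fold lower in aged control relative to young (log2 change -0.82, log2 count ratio -0.85, interval -0.96 to -0.74). In aged EPA against young the count ratio had an interval of -0.05 to 0.13. Of the genes compared, 2.05% were at least as far from 0 in aged EPA against aged control and 2.51% when aged control was set against young. No listed gene overlaps Mul1 (chromosome 4, 138434671 to 138442265), and its neighbour Camk2n1 on the same strand stood at 27.7, 31.1 and 28.9 CPM in aged EPA, aged control and young.

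Fbxo30 and Fbxo40 are F-box genes. Fbxo30 (MUSA1 in mouse work on atrophy, held down by BMP signalling) had 12.9 CPM in aged EPA, 15.8 CPM in aged control and 15.4 CPM in young, so aged EPA was the low value, with a log2 change of -0.27 against aged control. Its counting interval in that comparison was -0.37 to -0.08, the widest of the 10 genes, at 743 and 893 counts. Fbxo40, a muscle-restricted F-box gene whose protein targets the insulin receptor substrate IRS1, had 431 CPM in aged EPA, 458 CPM in aged control and 472 CPM in young. Its 3 libraries spanned 1.09-fold from lowest to highest.

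The FoxO genes differed from each other. Foxo1 (chromosome 3, 52268336 to 52353221) had 63.4 CPM in aged EPA, 67.1 CPM in aged control and 83.95 CPM in young. Both aged libraries were lower than young, with log2 changes of -0.40 in aged EPA against young and -0.32 in aged control against young, while aged EPA against aged control was -0.08. Foxo3 (chromosome 10, 42181841 to 42276755) had 41.6 CPM in aged EPA, 45.3 CPM in aged control and 39.5 CPM in young. It was slightly above young in both aged libraries, by 0.07 and 0.19 on the log2 scale in aged EPA and aged control, and its counting interval for aged EPA against aged control (-0.13 to 0.03) spanned 0.

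Ddit4, whose product REDD1 inhibits mTORC1 and is induced by glucocorticoids and energy stress, ran opposite to Mul1. It stood at 31.6 CPM in aged EPA, 51.3 CPM in aged control and 38.2 CPM in young, with 1816, 2898 and 2201 counts. Aged control was the highest library and aged EPA the lowest. Ddit4 was 1.60-fold lower in aged EPA relative to aged control (log2 change -0.68, log2 count ratio -0.63, counting interval -0.72 to -0.55), an interval that reaches inside 1.5-fold. Relative to young it was 1.34-fold higher in aged control (log2 change 0.42) and lower in aged EPA (-0.26). Klf15, a transcription factor that glucocorticoids induce and that acts with their receptor on ligase genes, stood at 60.3, 58.1 and 56.2 CPM in aged EPA, aged control and young. Its log2 changes were between 0.05 and 0.10 in the 3 comparisons, and between 0.01 and 0.13 with recovered counts over own totals. Klf15 thus did not follow Ddit4.

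Mstn encodes myostatin, the secreted TGF-beta family ligand that limits muscle mass. It had 74.5 CPM in aged EPA, 81.1 CPM in aged control and 70.7 CPM in young. Aged control was the highest library, with a log2 change of 0.19 against young (counting interval of the ratio 0.16 to 0.28). Aged EPA was lower than aged control by -0.12 on the log2 scale and higher than young by 0.07.

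**Figure D3:**
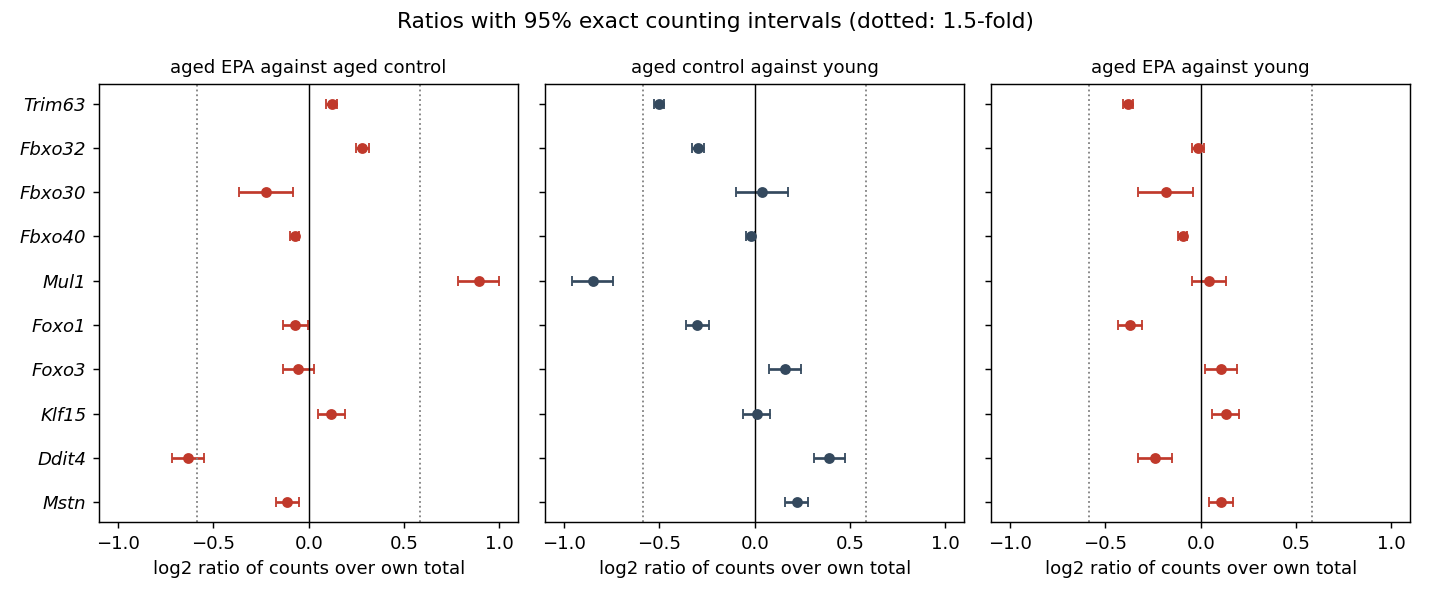
Log2 ratios of recovered counts, each divided by its library's total (x axis), for the 10 genes, with 95% exact Clopper-Pearson intervals that cover counting error only; the panels are aged EPA against aged control, aged control against young and aged EPA against young, and dotted lines mark 1.5-fold. Mul1 lies past 1.5-fold to the right in the left panel (0.89) and to the left in the middle panel (-0.85). Ddit4 lies past it to the left in the left panel (-0.63), with an interval that reaches inside. No gene lies past 1.5-fold in the right panel.

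Aged EPA was set against aged control to see how the EPA diet bears on old muscle. Of the 10 genes, Mul1 was at least 1.5-fold higher and Ddit4 at least 1.5-fold lower in aged EPA, and the other 8 lay within 1.5-fold. Over all 12966 genes 3.60% were past 1.5-fold, 1.69% higher and 1.91% lower. In direction 4 genes were higher (Mul1, Fbxo32, Trim63, Klf15) and 6 lower, with a median log2 change of -0.08 beside -0.03 for all genes compared. With recovered counts over own totals these medians were -0.06 and 0.01. Of the 8 genes within 1.5-fold, Fbxo32 and Fbxo30 had the largest changes, at 0.27 and -0.27, each matched or passed in size by 17.6% of all genes.

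Aged control was set against young to see how old muscle differs on a diet without EPA. Mul1, which was lower in aged control, was the single member past 1.5-fold, where 5.24% of all genes were (2.69% higher and 2.55% lower), so that the count is near this background. Trim63 came next with -0.52, a size that 6.96% of all genes reached, then Ddit4 with 0.42. In direction, 5 genes lay on each side of 0, with Trim63, Fbxo32, Fbxo40, Mul1 and Foxo1 lower in aged control and Fbxo30, Foxo3, Klf15, Ddit4 and Mstn higher. The median log2 change was -0.01, and that of all genes compared also rounds to -0.01.

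In aged EPA against young, 0 of the 10 genes were past 1.5-fold, where 5.36% of all genes were (2.40% higher and 2.96% lower). Trim63 (-0.40) and Foxo1 (-0.40) were the farthest from young, and the median was -0.08 beside -0.04 for all genes. Over own totals these medians were -0.06 and -0.01. The 3 comparisons share libraries in pairs, so a gene that is low or high in the aged control library alone, such as Mul1, differs in opposite directions in the first and the second of them by construction. Over all genes compared, 68, 72 and 88 were at least 2-fold apart in the aged EPA, aged control and young library alone, with the other 2 libraries within 1.5-fold of each other.

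**Figure D4:**
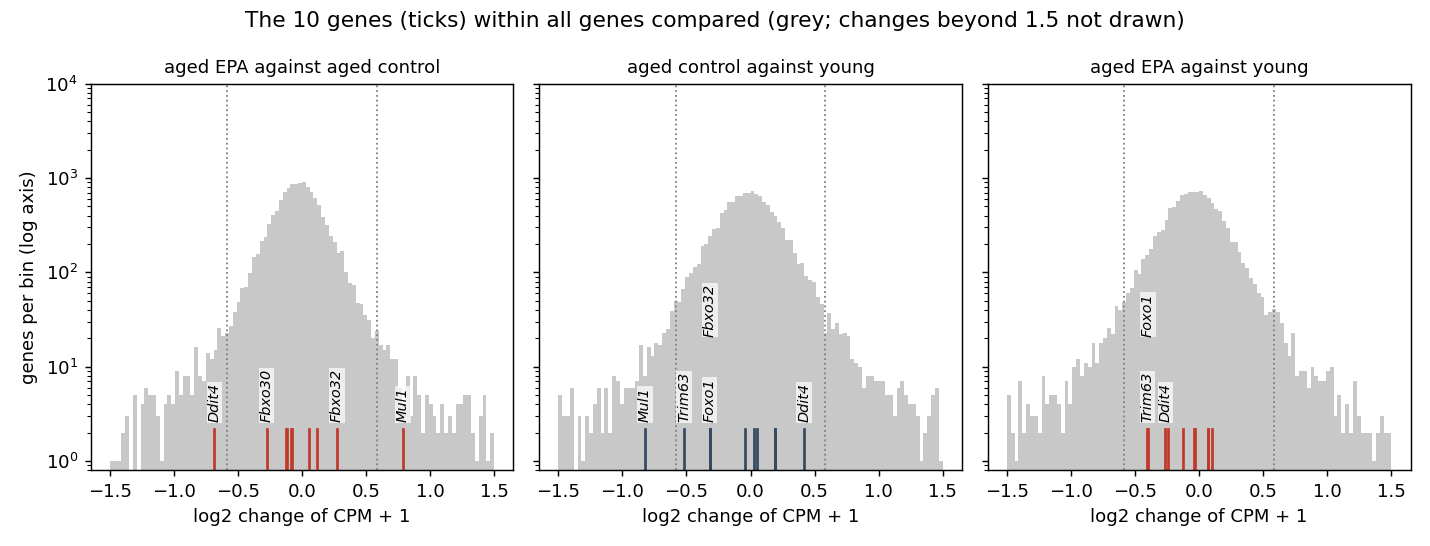
Histogram of the log2 change of CPM + 1 over all 12966 genes compared (grey, log y axis, changes beyond 1.5 not drawn) with the 10 genes as coloured ticks, named where the change is at least 0.25 in size; dotted lines mark 1.5-fold. Mul1 (0.79) and Ddit4 (-0.68) lie outside the dotted lines in aged EPA against aged control, Mul1 alone (-0.82) in aged control against young, and none in aged EPA against young.

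Genes around the 10 were described from 11 lists. Their counts past 1.5-fold stand beside the shares over all genes given above, 3.60% in aged EPA against aged control, 5.24% for aged control against young, and 5.36% for aged EPA against young. Of 39 other muscle ubiquitin ligase genes compared, 0 were past 1.5-fold in aged EPA against aged control, 1 (Trim62, lower) in aged control against young and 1 (Asb5, lower) in aged EPA against young, with medians of -0.04, 0.07 and 0.00. Trim62, named after its values were seen and with a mean under 5 CPM, stood at 1.71 CPM in aged EPA, 1.24 in aged control and 2.78 in young, a log2 change of -0.76 in aged control against young. Asb5, a muscle gene for a substrate adaptor of cullin ligases, stood at 237 CPM in aged EPA, 256 in aged control and 367 in young, with a log2 change of -0.52 in aged control against young, within 1.5-fold. The summed level of the list was 4401 CPM in aged EPA, 4405 in aged control and 4378 in young.

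Among 32 genes of ubiquitin, conjugating enzymes and deubiquitinases, 1 was higher and 1 lower past 1.5-fold in aged EPA against aged control. Ube2l3, a conjugating enzyme gene, stood at 142 CPM in aged EPA, 63.8 CPM in aged control and 26.6 CPM in young, and Ube2g2, a conjugating enzyme gene of the endoplasmic reticulum degradation pathway, at 33.4, 88.6 and 89.7 CPM. In aged control against young 3 genes were past 1.5-fold, all higher: Ube2l3, the deubiquitinase gene Otud1 (51.6 CPM in aged EPA, 73.2 in aged control, 33.4 in young) and the deubiquitinase gene Uchl1 (6.66, 8.43 and 4.32 CPM).

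Other FoxO target genes had medians of 0.04 in aged EPA against aged control and -0.09 in aged control against young over 39 genes, with 1 past 1.5-fold in each. That gene was Bcl2l11, which encodes the cell death protein BIM, at 7.09 CPM in aged EPA, 2.78 in aged control and 6.98 in young, a pattern low in aged control alone. Pdk4, which restrains glucose oxidation and is a FoxO target, stood at 1051 CPM in aged EPA, 1019 in aged control and 1519.8 in young. None of the 35 compared regulators of the insulin-like growth factor, Akt and FoxO line was past 1.5-fold in any of the 3 comparisons. Junb, which opposes FoxO3 in muscle, was at 44.3 CPM in aged EPA, 34.6 in aged control and 32.4 in young. Its log2 change in aged EPA against aged control was 0.35, where the list median was -0.10. Ywhaz (-0.42), Irs2 (-0.28) and Igfbp3 (-0.22) of the same list were lower in that comparison.

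On the mTORC1 side, where Ddit4 acts, 3 of 30 genes were past 1.5-fold in aged EPA against aged control, all higher in aged EPA, where 1.69% of all genes were. In aged control against young 1 was higher (Rps6kb2, a ribosomal S6 kinase gene) and 2 were lower (Rragd and Sestd1). Rps6kb2 stood at 11.4 CPM in aged EPA, 16.2 in aged control and 9.67 in young. Rragd, a Rag GTPase that brings mTORC1 to the lysosome, stood at 229 CPM in aged EPA, 58.2 in aged control and 213 in young (log2 change 1.96 in aged EPA against aged control). Flcn, which encodes folliculin, the activating partner of that GTPase, stood at 64.1, 40.2 and 59.9 CPM. The third gene higher in aged EPA against aged control was Sestd1, at 10.6, 3.88 and 11.7 CPM. Sestd1 was in the list although no part of it in mTORC1 signalling is established. All 3 genes higher in aged EPA, Sestd1 included, were low in aged control, as Mul1 was. A gene low in the aged control library alone is higher in aged EPA by construction.

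Corticoid receptor and target genes had 0 of 27 past 1.5-fold in aged EPA against aged control, with a median of -0.14. In aged control against young 2 were higher and 2 lower. The metallothionein genes Mt1 (20.9 CPM in aged EPA, 24.1 in aged control, 50.1 in young) and Mt2 (16.1, 19.6 and 43.8 CPM) were lower in the aged libraries. Nr3c2, the mineralocorticoid receptor gene (10.4 CPM in aged EPA, 13.1 in aged control, 3.34 in young), and the phosphatase gene Dusp1 (146, 165 and 95.02 CPM) were higher.

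Of 26 genes of myostatin and activin signalling, 0 were past 1.5-fold in aged EPA against aged control, and 4 were higher and 0 lower in aged control relative to young, with a median of 0.16. Gdf11, the close relative of Mstn, stood at 22.3 CPM in aged EPA, 19.4 in aged control and 9.42 in young. Mss51, a muscle gene that responds to myostatin, stood at 227, 288 and 105 CPM, the receptor-activated Smad gene Smad2 at 11.1, 12.3 and 7.73 CPM, and Smurf1, a ubiquitin ligase gene of that pathway, at 20.2, 17.3 and 10.4 CPM. Thus these 4 genes were lowest in young, while Mstn itself spanned 1.15-fold over the 3 libraries. In the BMP list 1 of 17 genes was past 1.5-fold in aged EPA against aged control: the Smad gene Smad5, at 13.3 CPM in aged EPA, 32.4 in aged control and 25.8 in young.

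Denervation genes had 0 of 19 past 1.5-fold in aged EPA against aged control and 3, all higher, in aged control against young. Those 3 were Hdac9, Dach2 and Sln (log2 changes 1.02, 0.66 and 0.93), each with a mean under 5 CPM and named after its values were seen. The list median was 0.08 in that comparison, and its changes ran from -0.43 (Myod1) to 1.02. The list gives no direction in which a gene responds to denervation, so higher levels are not read as such a response. Hdac4, a deacetylase gene of the list, was within 1.5-fold in aged control against young (0.47). It stood at 45.2 CPM in aged EPA, 43.5 in aged control and 31.1 in young. In aged EPA against aged control, among 18 inflammatory genes 1 was higher and 1 lower: Il6st, the shared receptor chain of interleukin-6 cytokines (168 CPM in aged EPA, 85.2 in aged control, 82.8 in young), and Mapk14, the p38 alpha kinase (53.9, 135.5 and 66.6 CPM). Candidate substrates of MuRF1 and atrogin-1 had 0 of 24 past 1.5-fold in aged EPA against aged control and 3, all higher, in aged control against young. Myh7, the slow myosin heavy chain, and Tnni1, the slow troponin I, were 2 of these 3, at 126 and 29.7 CPM in aged EPA, 178 and 38.97 CPM in aged control, and 66.4 and 18.5 CPM in young. Whether the share of slow fibres differed between the libraries was not tested. The values are transcript levels, while the ligases act on proteins.

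**Figure D5:**
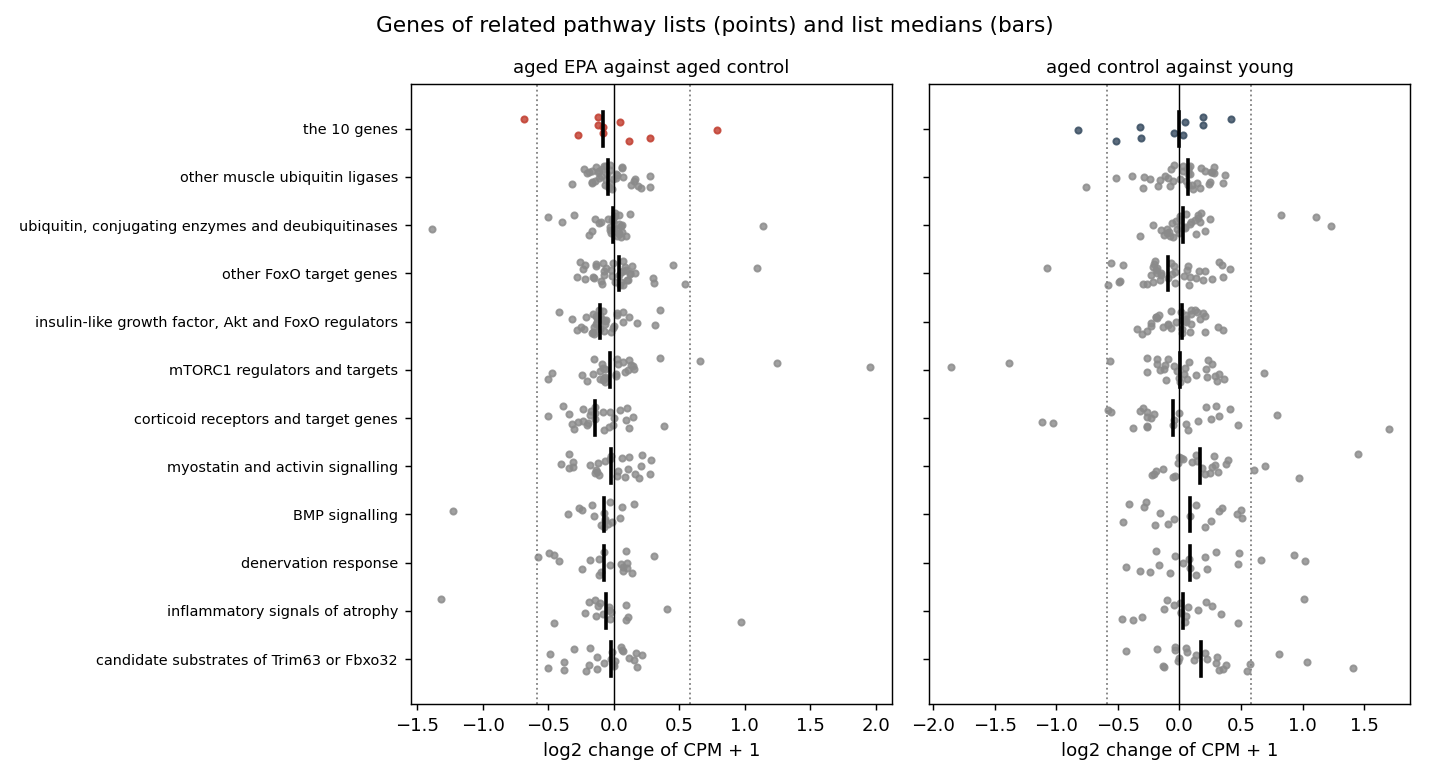
Log2 change of CPM + 1 (x axis) of every compared gene in the 10-gene set (top row) and in the 11 pathway lists, with list medians as black bars and 1.5-fold as dotted lines; left, aged EPA against aged control, right, aged control against young. All list medians lie between -0.14 and 0.17, and single genes such as Rragd (1.96 on the left) lie far from them.

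Likeness to the leading ligases was measured as the distance between pairs of log2 changes (aged EPA against aged control, aged control against young) over the 3 libraries, among 263 genes of the lists with a mean of at least 5 CPM. Nearest to Trim63 were Gadd45b, a stress gene (18.2 CPM in aged EPA, 17.5 in aged control, 25.003 in young), Pdk4, and the myogenic factor gene Myod1 (26.0, 24.7 and 33.7 CPM), with distances of 0.07, 0.09 and 0.10. Nearest to Fbxo32 were the ligase adaptor gene Asb12 (30.03, 24.5 and 32.3 CPM), Trim54 (343, 297 and 364 CPM), which encodes the MuRF relative MuRF3, and Bcat2, a branched-chain amino acid enzyme gene (58.7, 45.8 and 55.1 CPM), with distances of 0.07, 0.07 and 0.09. With 3 libraries such patterns have few ways to differ.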

How the data were processed

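The deposited values are CPM per gene and library, per the file headers. Mouse build GRCm38 is named in the submitters' processing notes, as are the tools StringTie 1.3.4d, HISAT2 2.1.0 and R 3.5.0. The counting step and its use of strand are not given in the sources used here. The authors' CPM became whole counts with 1 of 5 divisors (56034275 to 57687235) that differ from gene to gene, so a deposited CPM differed by -2.98% to 2.84% from that over the library's own recovered total.

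Values of 63 rows with a repeated symbol were summed by symbol. Changes are log2 ratios of CPM + 1 over genes whose mean reached 1 CPM, and 1.5-fold was the threshold. Counting intervals (95%, exact Clopper-Pearson) use recovered counts. Exon lengths came from GENCODE M21 (GRCm38). Python 3.11.15, numpy 2.4.6, pandas 2.3.3 and scipy 1.17.1 were used, and the scripts were tested on simulated data. The 10 genes and all lists were chosen with earlier results of these data known. All 10 genes were named, with the up to 4 genes of each list whose mean reached 5 CPM with the largest change in aged EPA against aged control or aged control against young, some of which are given as counts alone. Alternatives were pseudocounts of 0.1 and 5, no filter, a mean of 5 CPM or more, median of ratios, TMM (a trimmed mean of log ratios), leaving out mitochondrial and the 20 most abundant genes, own totals, subtraction of a length trend, and thresholds of 5/4-fold and 2-fold.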

Additional observations from a re-analysis of the deposited data

How the results depend on the processing

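The calls of the 10 genes at 1.5-fold, Mul1 and Ddit4 in aged EPA against aged control, Mul1 alone for aged control against young, and 0 for aged EPA against young, were the same under every other pseudocount, filter and scaling tried, with a length trend subtracted, and with TMM on recovered counts, which was chosen after seeing the data. At 2-fold, 0 of the 10 were called in aged EPA against aged control and 0 in aged control against young, where 1.33% and 1.74% of all genes were. At 5/4-fold, 3 were called in aged control against young (Mul1, Trim63, Ddit4) and 2 in aged EPA against young (Trim63, Foxo1), where 19.6% and 19.1% of all genes were. Mul1 ranged from 0.69 to 0.86 and Ddit4 from -0.70 to -0.62 in aged EPA against aged control over these settings. Signs changed for Fbxo32 (-0.04 to 0.01) and Mul1 (-0.04 to 0.05) in aged EPA against young and for Fbxo40 (-0.06 to 0.00) in aged control against young, where the median of the 10 genes ranged from -0.02 to 0.02. The share of all genes past 1.5-fold was 5.92% with a pseudocount of 0.1 CPM and 1.80% with 5 CPM in aged EPA against aged control, 8.50% and 2.41% for aged control against young, and 8.40% and 2.34% for aged EPA against young. Some genes named from the lists also changed call. In aged EPA against young, Asb5 fell inside 1.5-fold with TMM (-0.58) and with the length trend subtracted (-0.58). In aged control against young, Uchl1 (0.53), Rps6kb2 (0.53), Smad2 (0.44) and Smurf1 (0.54) fell inside 1.5-fold with a pseudocount of 5 CPM. Smad2 (0.58) also did so with the length trend subtracted. Flcn (-0.61) and Pdk4 (-0.62) passed 1.5-fold in that comparison over own totals. Pdk4 also passed it with TMM on recovered counts (-0.59) and without mitochondrial and the 20 most abundant genes (-0.59). With a pseudocount of 5 CPM, 2 genes of myostatin and activin signalling and 0 denervation genes were past 1.5-fold in aged control against young. No paired analysis was possible because each group is 1 pooled library, and no library could be left out for the same reason. Counting error, at 743 counts or more per gene and library, leaves the Ddit4 interval reaching inside 1.5-fold and the intervals of 1, 3 and 2 of the 10 genes spanning 0 in aged EPA against aged control, aged control against young and aged EPA against young. Variation between mice was not measured.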
